A study of Mus musculus with 4 samples.

Results

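Probe sets that the platform annotation ties to several genes were compared between RNA pulled down by an RNA-binding protein (RBP) antibody and RNA pulled down by control rabbit IgG. Of the 35556 probe sets on the array, 1613 carried 2 or more distinct gene symbols and were taken as members. Another 21789 carried 1 symbol, 8 repeated 1 symbol for several gene identifiers, and 12146 carried none. All 4 arrays share the same kind of cells, early erythroid progenitors from fetal liver of C57BL/6 mice at E14.5. Before sorting for c-kit+ cells with low CD71, lineage-positive, Sca-1+, CD16/32+, CD41+ and CD34+ cells were removed with magnets. There were 2 arrays from IgG precipitations and 2 from precipitations with the RBP antibody, which the labels give by catalogue number without naming its target. No array of input RNA was analysed here. Nothing in the labels says whether replicate arrays had separate cell preparations, so p-values measure only how far these arrays vary, which may be technical variation.

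In this assay, RIP-Chip, an antibody pulls a protein out of a cell lysate with the RNA attached to it, and the RNA is read on an array. A whole-transcript probe set reports 1 summary signal over its probes. Where those probes match a gene and its processed copies, a cluster of near-identical paralogs, or a host gene and the small RNA in its intron, the signal cannot be assigned to 1 of them. Such probe sets are named here by all their symbols joined with a slash, never as 1 gene. Many abundant housekeeping genes, among them those of ribosomal proteins and Gapdh, have numerous processed pseudogenes in the mouse genome, and chemosensory receptor, Y-linked germline and histone genes sit in clusters of like copies.

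The members held 2016 distinct symbols in 792 different symbol sets. Of those symbols, 627 also had a probe set of their own that carried no other symbol. The median member carried 3 symbols, 717 carried 2, 157 carried 10 or more, and the longest set had 20. In 285 sets the same symbols recurred on 2 or more probe sets, which covered 1106 members. All 1613 still held several distinct symbols after 6845 of the 6875 listed Entrez identifiers were found in the RefSeq gene table, and 1088 held at least 2 named genes once predicted models (Gm numbers, Rik clones and the like) were set aside. By that table, 533 members joined genes on more than 1 chromosome, 943 joined genes on 1 chromosome that do not overlap, and 109 joined overlapping genes. The remaining 28 held a gene that was not located.

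MicroRNAs, which guide Argonaute proteins to messages through bases 2 to 8 (the seed), give examples of symbols that share a probe set. Why symbols share one was not tested. The mature sequences below come from RefSeq (GRCm38.p6), with the seed in capitals. They belong to the members with microRNA symbols on which results below turn. Of 68 symbols with microRNA letters among the members, 37 were found in the table.
mmu-miR-465a-5p: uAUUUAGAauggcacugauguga
mmu-miR-465b-5p: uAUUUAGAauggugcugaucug
mmu-miR-465c-5p: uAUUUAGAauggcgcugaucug
mmu-let-7b-5p: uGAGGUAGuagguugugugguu
mmu-let-7c-5p: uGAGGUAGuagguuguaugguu
mmu-miR-344-3p: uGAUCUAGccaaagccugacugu
mmu-miR-207: gCUUCUCCuggcucuccucccuc
mmu-miR-682: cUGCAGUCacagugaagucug
mmu-miR-692: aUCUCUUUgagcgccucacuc
mmu-miR-703: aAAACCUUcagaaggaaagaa

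The 3 miR-465 sequences share the seed AUUUAGA and their symbols sit together on the same 2 probe sets. Counted from the 5′ end, miR-465b-5p differs from miR-465a-5p by C13U, A14G and G20C and is 1 base shorter, and miR-465c-5p differs from miR-465b-5p by U13C. The let-7 pair shares the seed GAGGUAG and differs by G17A (let-7b to let-7c), yet their symbols sit on separate probe sets, each joined to the overlapping transcript Lncppara. Mature let-7c of Mirlet7c-2 lies at chr15:85706616-85706637 and let-7b at chr15:85707325-85707346, both on the plus strand. Mir344 and Mir344-2 give the same mature miR-344-3p from chr7:61877782-61877804 and chr7:61940036-61940058 on the minus strand, and share their probe sets. MiR-207, at chr4:40722968-40722990 on the plus strand, is joined to the overlapping gene Dnaja1. For miR-682, miR-692 and miR-703 the partner symbol on the probe set is a messenger RNA gene on another chromosome (Rpl37a, Ftl1 and Eef1a1). A probe set reads any RNA that holds its letters, host and precursor transcripts included, so these values are not levels of mature microRNA.

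The arrays differed in spread. The SD of the difference between the 2 arrays of a group, over all probe sets, was 0.62 (log2) for IgG and 0.33 for RBP. Of 9 erythroid markers measured by probe sets of 1 symbol, 8 exceeded the background level on all 4 arrays, and none passed the test. Background was set at 5.35 (log2), the 95th percentile of 1267 olfactory, vomeronasal and taste receptor probe sets of 1 symbol. Of 8 macrophage markers, 6 exceeded it in the IgG mean, 2 in the RBP mean and 2 on all 4 arrays, with array means of 5.99 and 5.75 on IgG and 5.81 and 5.56 on RBP arrays. Among them Cd68 was called lower (-1.59, limma adjusted p = 0.0259), while Csf1r differed by 1.12 and was not called. Of 7 hepatocyte, 5 megakaryocyte, 9 granulocyte and mast cell, 5 lymphoid and 6 endothelial and stromal markers, 4, 3, 6, 4 and 4 exceeded it on all arrays. Of these lists, limma called Gp9 of megakaryocytes higher (0.82, adjusted p = 0.0408) and Ngp of granulocytes lower (-0.79, adjusted p = 0.0436). The part of such cells in the results was not tested.

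Over the whole of the members, values as deposited were lower on the RBP arrays. The median difference, RBP minus IgG, was -0.43 (log2) over the 1613 members, -0.03 over probe sets with 1 symbol and -0.16 over all 35556. The difference was negative in 77.7% of the members and in 51.8% of the probe sets with 1 symbol. In the limma fit across the whole table, with Benjamini-Hochberg adjusted p under 0.05, 56 members were called higher on the RBP arrays (3.47%) and 99 lower (6.14%). The background rates over all probe sets were 11.6% higher and 5.62% lower, and over probe sets with 1 symbol 15.9% and 2.16%. The members' share of calls thus lay below both backgrounds for higher, near the rate of all probe sets for lower, and above that of 1-symbol probe sets for lower. The split of calls moved with scaling: 8 higher and 38 lower after quantile normalization, 124 and 37 after centring each array on chemosensory receptors, and 7 and 79 after removal of the trend with level. The median over all probe sets was 0.06 after quantile normalization and 0.15 after chemosensory centring. Centring adds the same amount to the difference of every probe set, so it raised the median of the members as well. How far the members lay below 0 thus depends on the scaling. Without either RBP array, 0 members were called (without RBP array 1, 85 higher and 91 lower at unadjusted p under 0.05 in limma, without RBP array 2, 71 and 163), while without IgG array 1 the lower calls numbered 512 and without IgG array 2 they numbered 264. Each array holds RNA from many cells, so the number of cells of a type and the RNA per cell cannot be told apart in a level.

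A rule of size counted more members as lower. Members with a 2-fold or larger difference and separate groups numbered 56 higher (3.47%) and 204 lower (12.6%), beside 10.6% and 8.01% of all probe sets and 13.8% and 1.62% of those with 1 symbol. Whatever the size, the groups were separate in 14.8% of members in the higher and 65.8% in the lower direction, beside 28.3% and 43.8% of all probe sets and 37.2% and 36.4% of those with 1 symbol. With 2 arrays a group an exact permutation test of 1 member cannot go below 0.333, and no such p is given.

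The difference varied with level, and the members lay below the probe sets of 1 symbol in 8 of the 9 level classes. Among members with a mean level of 8 to 9 (log2), the median difference was 0.29 over 87 members and 0.78 over 2573 probe sets of 1 symbol. At 10 to 11 it was -0.26 over 144 members and 0.50 over 849. At 11 to 12 it was -0.32 over 157 and 0.12 over 246. Above 12 the order turned, with 0.13 over 76 members and -0.03 over 32 probe sets of 1 symbol. Above the background level, 56 of 944 members were called higher (5.93%) and 64 lower (6.78%), beside 24.3% and 2.57% of probe sets with 1 symbol. At or below it, limma called 0 of 669 higher (2 at unadjusted p under 0.05) and 35 lower (5.23%). Of probe sets with 1 symbol at that level, 0.571% were called higher and 1.4% lower.

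**Figure D1:**
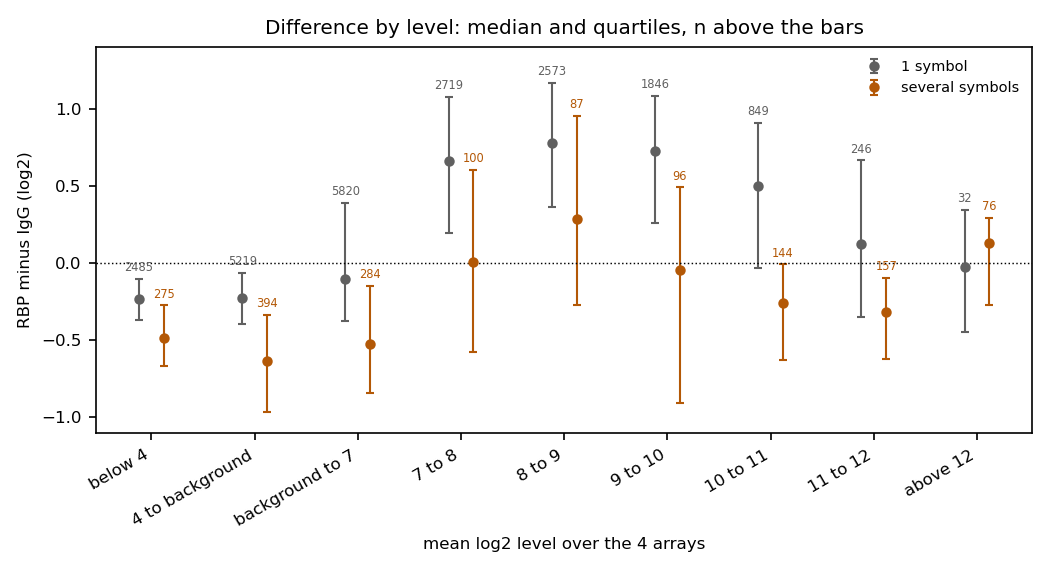
Difference between RBP and IgG arrays (log2, vertical axis) by class of mean log2 level over the 4 arrays (horizontal axis), for probe sets with 1 symbol (grey) and with several (orange); points are medians, bars run from the first to the third quartile, and numbers give the probe sets. The medians of several-symbol probe sets lie below those of 1-symbol probe sets in every class except above 12, where they were 0.13 and -0.03.

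Make-up of the symbol set went with the difference. Over all probe sets, 11.6% were called higher and 5.62% lower. The 408 members that join 1 named gene to predicted models had 27 called higher (6.62%) and 14 lower (3.43%), with a median of -0.40. The 680 that join named genes of 1 family or stem had 16 higher (2.35%) and 41 lower (6.03%), with a median of -0.38. The 291 that join genes with unlike symbols had 13 higher (4.47%) and 19 lower (6.53%), with a median of -0.36. The lower shares of these last 2 classes lay near that of all probe sets. Of 114 members of predicted models alone, 0 were called higher by limma (14 at unadjusted p under 0.05) and 2 lower (1.75%), with a median of -0.50. The lowest medians belonged to small RNAs: -1.002 over 80 members made of small RNA symbols alone and -1.11 over 40 that join a gene to a small RNA. In these small RNA classes limma called 0 members higher (0 also at unadjusted p under 0.05), while 8 of 80 (10.0%) and 15 of 40 (37.5%) were called lower. The 80 hold only 29 distinct profiles in 20 symbol sets, 24 of them in 1 Snord116 set, and the 8 calls were 4 profiles. The 15 calls among the 40 were 12 profiles in 8 symbol sets, and 7 of the 15 belonged to Rdm1/Rnu2-10. With each symbol set counted once, the medians were -0.65 and -0.88, against -0.46 to -0.15 in the other 4 classes. Over members, the order of the 2 lowest classes below the other 4 held under quantile normalization, chemosensory centring and trend removal.

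**Figure D2:**
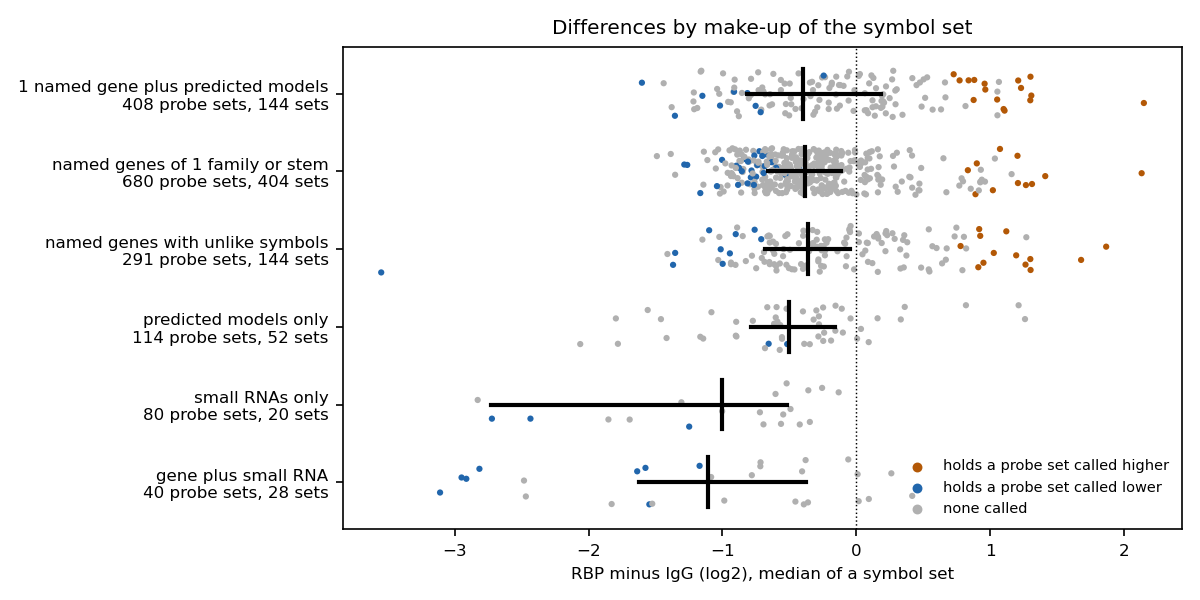
RBP minus IgG (log2) for each of the 792 symbol sets (points, median over the probe sets of the set), by make-up; black bars give the quartiles and the median over probe sets. Points of the small RNA classes reach down to -3.11, and no set of these classes holds a probe set called higher.

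Members that join a gene to a small nucleolar RNA (snoRNA) had negative differences. SnoRNAs guide chemical modification of ribosomal and other RNAs in the nucleolus, and most are cut from introns of host genes, many of which code for ribosomal proteins. Snord7/AI450353, whose second symbol was classed as a predicted model, was counted with the small RNAs alone and differed by -0.69 with overlapping groups. All 10 members that join a snoRNA to a named gene had a negative difference (median -2.65), and 6 were called lower, beside 5.62% of all probe sets. Probe sets with 1 symbol, that of a snoRNA, were also all negative (56 of 56, median -2.03), and 22 of them (39.3%) were called lower. The difference between both kinds was not tested. The member Snord68/Rpl13 (10576216) read 7.35 and 8.62 with IgG and 4.39 and 5.36 with the RBP antibody. That was a difference of -3.11 ± 0.56 (SE, n = 2 a group, limma adjusted p = 0.0354). Both RBP values lay below both IgG values and close to or under the background level. Snord14d/Snord14c/Hspa8, snoRNAs within the gene of the constitutive chaperone Hspa8, had 2 members. The first (10584576) read 10.58 and 10.99 on IgG and 7.30 and 8.35 on RBP arrays, a difference of -2.95 ± 0.40 (limma adjusted p = 0.0263), and the second differed by -2.94. Both RBP values of each member lay far below the IgG values. Snord34/Rpl13a read 8.28 and 9.36 against 5.17 and 6.64 (-2.91 ± 0.63, adjusted p = 0.0482), and Snord32a/Rpl13a read 9.71 and 10.62 against 6.71 and 7.99 (-2.82 ± 0.55, adjusted p = 0.0403). Rpl13a codes for a protein of the large ribosomal subunit. Snora43/Snhg7, an H/ACA snoRNA with its noncoding host, read 9.09 and 9.41 against 7.55 and 7.67 (-1.64 ± 0.18, adjusted p = 0.0259). Of the 4 others, Snora28/Eif5 differed by -2.48 (adjusted p = 0.0542), Snora24/Snhg8 by -2.47 (0.0525), Snord14a/Rps13 by -1.83 (0.138) and Rpl12/Snora65 by -1.52 (0.106). In all 4, IgG array 2 was the higher of the IgG pair and RBP array 2 the higher of the RBP pair, as in the 6 called. The calls of Snord68/Rpl13, Snord34/Rpl13a and Snord32a/Rpl13a were lost after quantile normalization, the first 2 also after trend removal, and Snord34/Rpl13a after chemosensory centring too. Without IgG array 2, Snord34/Rpl13a (-2.37, adjusted p = 0.0804) and Snord32a/Rpl13a (-2.36, adjusted p = 0.0649) were not called.

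Members with U3, 7S and U2 RNA symbols were called lower as well, while those with U1 and Snord116 symbols were not called. Rnu3b4/Rnu3b3/Rnu3b2/Rnu3b1, the U3 snoRNA genes, had 4 members with identical values on every array: 11.09 and 10.79 on IgG and 8.29 and 8.15 on RBP arrays. The difference was -2.72 ± 0.18 (limma adjusted p = 0.0259). Rn7s2/Rn7s1, the 7S RNA of the signal recognition particle, which was singled out after its values were seen, read 11.12 and 12.01 against 9.57 and 8.70 (-2.43 ± 0.44, adjusted p = 0.0362). Rdm1/Rnu2-10 joins Rdm1, a DNA repair related gene, to a U2 small nuclear RNA symbol and had 7 members. The 7 hold 4 distinct profiles. All were called lower, with differences from -1.73 to -1.55, and their median values were 11.99 and 12.14 on IgG and 10.41 and 10.56 on RBP arrays. Rnu1b6/Rnu1b2/Rnu1b1, the U1 genes, differed by -1.01 to -0.99 in 9 members of 3 distinct profiles and were not called. Their medians were 10.68 and 10.48 on IgG and 9.12 and 10.04 on RBP arrays, so the RBP arrays lay apart from each other. The largest set of all, Snord116l2/Snord116l1/Gm26504 with 24 members, belongs to an imprinted snoRNA cluster known from neurons. Its median values were 5.80 and 8.70 on IgG and 3.75 and 5.09 on RBP arrays, a difference of -2.83 with an SE of 1.09 and an adjusted p of 0.137 for its 18 identical members. IgG array 2 stood far above IgG array 1 there, and the set was not called.

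MicroRNA symbols had medians nearer to 0 than snoRNA symbols. Of 34 members made of microRNA symbols (host transcripts such as Mir17hg included by their letters), limma called 2 lower and 0 higher (0 higher also at unadjusted p under 0.05), and 1 of the 34 exceeded the background level on its mean. The share called lower, 5.88%, lay near the 5.62% of all probe sets. Their median was -0.42, beside -0.41 over 308 probe sets with 1 microRNA symbol, of which 36 (11.7%) were called lower. The 34 hold only 12 distinct profiles, while the 308 hold 308. Identical values were found on 13 members of the Mir669 set (-0.42) and 9 of the Mir467 set (-0.60). The median and share of the 34 thus rest largely on repeats under the background level. The 2 called were Mir344-2/Mir344, chosen here after their values were seen: the first read 5.61 and 6.27 on IgG and 4.81 and 4.54 on RBP arrays (-1.26 ± 0.28, adjusted p = 0.0498). Mir465b-1/Mir465c-2/Mir465c-1/Mir465b-2/Mir465, on 2 members with identical values, read 3.66 and 2.85 against 2.87 and 2.94, overlapping and under the background level. Of 23 members that join a gene to a microRNA, limma called 2 lower and 0 higher (0 at unadjusted p under 0.05), with a median of -0.39. Lncppara/Mirlet7c-2 read 6.29 and 5.76 on IgG and 4.58 and 4.38 on RBP arrays (-1.55 ± 0.24, adjusted p = 0.0291). The neighbouring Lncppara/Mirlet7b read 6.62 and 6.81 against 5.91 and 6.09 (-0.72 ± 0.17, adjusted p = 0.0555), not called but without overlap. Mir207/Dnaja1 read 10.14 and 10.51 against 9.12 and 9.18 (-1.17 ± 0.19, adjusted p = 0.0311). These 3 were also picked after their values were seen.

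Where a gene joined to a small RNA also had a probe set of its own, the values could be set side by side. Here and below, a gene with several such probe sets is given by the one with the highest mean level. This was possible for 29 members and 15 genes, in 30 pairs. The median difference was -1.11 on the joint probe sets and -0.17 on the genes' own. Hspa8 on its own read 12.19 and 12.16 on IgG and 12.51 and 12.53 on RBP arrays (0.34, adjusted p = 0.158), against -2.95 with Snord14d and Snord14c. Eif5, a translation initiation factor, differed by 0.16 on its own and by -2.48 with Snora28. Dnaja1, a cochaperone of the Hsp40 family, differed by 0.56 on its own (adjusted p = 0.0895) and by -1.17 with Mir207. Rdm1 differed by -0.28 on its own and by -1.73 to -1.55 with Rnu2-10. In other pairs both values were alike: Rpl37a differed by -1.17 alone (limma adjusted p = 0.0454) and by -1.14 to -1.05 with Mir682. Ftl1, the ferritin light chain, differed by 0.08 alone and by -0.10 to 0.13 with Mir692-3 and Mir692-2. Rpl12 differed by -1.52 with Snora65 and by -1.60 alone, the lowest of 216 probe sets with 1 ribosomal protein symbol. Another 7 members with Rpl12 and no small RNA symbol differed by only -0.44 to -0.14. Eef1a1, the translation elongation factor, differed by 0.68 alone and by 0.26 on Mir703/Eef1a1/D630045J12Rik, which read 10.80 and 10.30 against 10.95 and 10.67 with overlap. The difference between a joint and an own probe set was not tested.

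**Figure D3:**
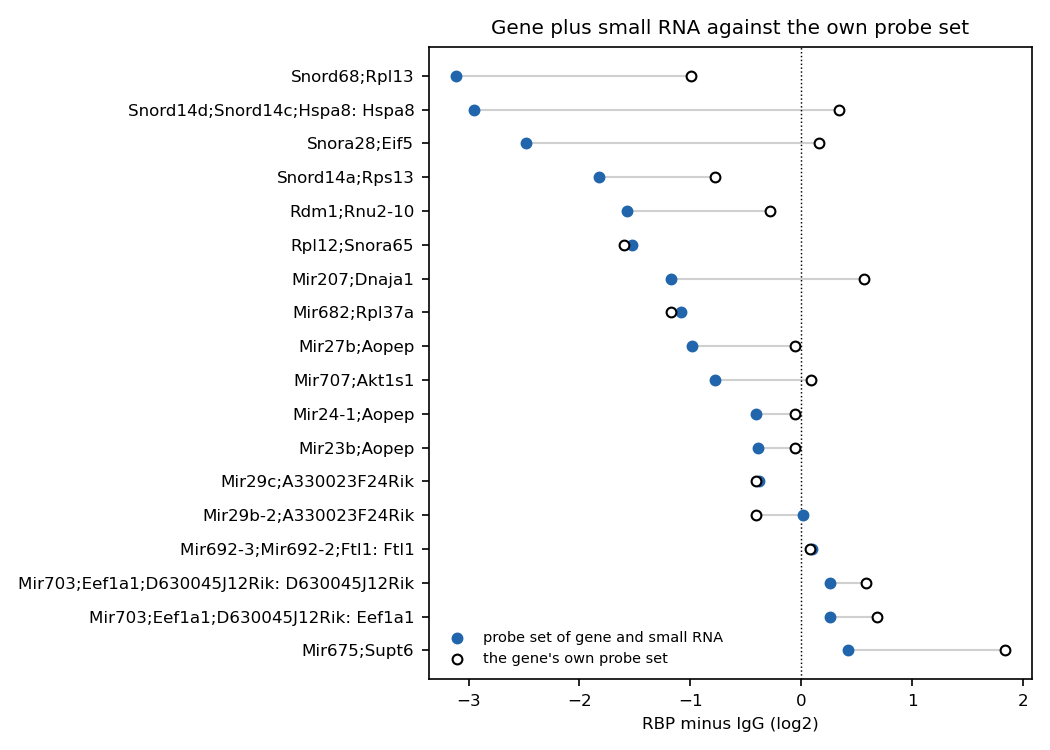
RBP minus IgG (log2, horizontal axis) of probe sets that join a gene to a small RNA (blue, median over the probe sets of the set) and of the probe set carrying that gene's symbol alone (open, the one with the highest mean level where there were several), for 18 pairs of gene and symbol set. SnoRNA pairs with Hspa8 and Eif5 lie near -2.95 and -2.48 on the joint probe set and near 0.34 and 0.16 on the own one, while Rpl37a and Ftl1 pairs nearly coincide.

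Members with the mitochondrial symbols ND6 and ATP6 headed the lower calls outside the small RNAs. Another 7 members were made of respiratory chain symbols by their letters. Limma called 0 of these (0 at unadjusted p under 0.05), with a median of -0.02. Over 127 probe sets with 1 such symbol the median was -0.04, with 6.3% called higher and 0.787% lower. ND6/Acsm2 (10598087) had the largest negative difference of all members. ND6 is a complex I subunit encoded in mitochondrial DNA, and Acsm2 a nuclear gene of fatty acid activation. It read 11.95 and 11.73 with IgG and 8.36 and 8.21 with the RBP antibody, a difference of -3.55 ± 0.17 or 11.7-fold (limma adjusted p = 0.0259). The groups lay far apart. Acsm2 on its own probe set read 4.21 and 4.02 against 4.03 and 4.05, under the background level on all arrays. Gm10925/ATP6, with a subunit of mitochondrial ATP synthase, had 2 members. They read 12.88 and 12.85 against 11.50 and 11.02 (-1.61 ± 0.22, adjusted p = 0.0263), and 12.92 and 12.92 against 11.49 and 11.16 (-1.60 ± 0.18, adjusted p = 0.0259). The first of these 2 calls was lost after quantile normalization.

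Ribosomal protein sets, the largest family, held high values on all arrays and were mostly not called. Of 139 members made of cytosolic ribosomal protein symbols (with predicted models set aside), limma called 0 higher (1 at unadjusted p under 0.05) and 3 lower, with a median difference of -0.49. Probe sets with 1 ribosomal protein symbol had a median of -0.51 over 216, and 1 was called higher and 22 lower. Counting any member that holds a ribosomal protein symbol gave 239 members, of which 12 were called lower (5.02%) and 0 higher (median -0.48). Over all probe sets 5.62% were called lower. Without members that also hold a small RNA symbol, 9 of 231 (3.9%) were called lower. The median of the 139 was negative under the 3 other scalings, at -0.62 after quantile normalization, -0.18 after chemosensory centring and -0.75 after trend removal, but chemosensory centring called 8 higher and 1 lower. The 2 called Rps15a-ps6/Rps15a-ps4/Rps15a members, of a small subunit protein, read 10.15 and 9.60 against 8.43 and 8.73 (-1.30 ± 0.25, adjusted p = 0.0402) and 10.02 and 9.52 against 8.35 and 8.64 (-1.27 ± 0.24, adjusted p = 0.038). Rps15a alone differed by -0.93. Gm15421/Rpl22l1 read 6.93 and 6.50 against 5.77 and 5.72 (-0.96 ± 0.20, adjusted p = 0.0461).

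Single ribosomal protein genes recurred on many probe sets with near-equal values. Rpl29 was on 35 members in 8 symbol sets, with differences from -0.91 to -0.55. Limma called 0 of the 35 (11 lower at unadjusted p under 0.05), and 0 overlapped between groups. The array medians of these 35 were 11.84 and 11.65 on IgG and 10.73 and 11.41 on RBP arrays, so RBP array 1 was the lowest. Rpl21, joined to the unlike gene Camkv and mostly to Cep170, was on 32 members with differences from -0.51 to -0.21. Rps2 with Gm10653 was on 17 members with differences from 0.18 to 0.41, the only ribosomal set of 10 or more members with a positive median (0.30). Its array medians were 12.26 and 12.30 on IgG and 12.62 and 12.56 on RBP arrays. Gm5766/Rpl7a on 17 members differed by -0.62 to -0.40, and Gm12191/Gm5481/Rpl30 on 10 members by -0.25 to -0.09. The ribosomal sets of 10 or more members thus ranged from 0.30 for Rps2 to -0.76 for Gm6133/Rpl17/Hk1, in which 2 of 14 members were called lower.

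In 2 symbol sets, members called lower held a gene whose own probe set was called higher. Nol11/Rps12, which was noticed after its values were seen, joins Nol11, a nucleolar protein of ribosomal RNA processing, to a small subunit protein. Its 4 members were all called lower, by -1.38 to -1.28. The member with the largest difference read 10.58 and 10.49 on IgG and 9.08 and 9.22 on RBP arrays (-1.38 ± 0.15, limma adjusted p = 0.0259). Rps12 alone was called lower by -1.19, while Nol11 alone was called higher by 1.25 ± 0.18 (adjusted p = 0.0276). Ubr3/Vamp2, a ubiquitin ligase and a vesicle SNARE, read 9.73 and 9.79 against 8.52 and 8.26 (-1.37 ± 0.17, adjusted p = 0.0259). The Ubr3 probe set went higher, by 1.51 ± 0.32 (adjusted p = 0.0459). Members were paired with the own probe set of each of their genes, the one with the highest mean level. These 5 were the only pairs of opposite calls among 1364, and 82.6% of the pairs had the same sign. By make-up, the same sign was found in 89.7% of pairs with predicted models, in 86.1% within a family, and in 71.0% with unlike symbols. The own probe sets of these classes had median levels of 9.22, 4.185 and 7.74 in that order. At or below the background level, 94.3% of members and 84.3% of probe sets with 1 symbol were negative, so a shared sign is frequent there for any pair. The order of the classes was not tested.

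Members of H3 and H4 symbols were not called, while 7 members with H2B symbols were called lower. Of 25 members made of replication and variant histone symbols by their letters, limma called 0 (2 lower at unadjusted p under 0.05), beside 10 of 43 probe sets with 1 histone symbol called lower. Their median was -0.07 and turned to 0.25 after chemosensory centring. The core histone H3 set H3c1 to H3c14, 12 symbols on 10 members, had array medians of 13.04 and 13.01 on IgG and 12.99 and 12.94 on RBP arrays, differing by -0.22 to -0.04. H4c17 to H4c8, with 11 symbols, read 13.32 and 13.06 on IgG and 12.99 and 12.71 on RBP arrays in 1 of 5 members (-0.34, adjusted p = 0.251). Another 2 sets of H2B symbols that the letter rule had missed, both running from H4bc24 to H2bc4 and with 14 and 15 symbols, held 7 members, all called lower and all described after their values were seen. One read 13.09 and 12.96 on IgG and 12.01 and 11.89 on RBP arrays (-1.08 ± 0.15, adjusted p = 0.0269), and the 7 ranged from -1.08 to -0.89. After quantile normalization 0 of the 8 members with H2bc symbols were called, and 2 after trend removal. The difference between the H2B and H3 sets was not tested.

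Limma called 0 of 4 globin members (0 at unadjusted p under 0.05). Hba-a2/Hba-a1, the adult alpha globin genes, read 9.77 and 8.87 on IgG and 9.35 and 8.27 on RBP arrays in 1 member and 9.55 and 8.61 against 9.14 and 8.06 in the other. Hbb-bt/Hbb-bs/Hbb-b2/Hbb-b1, the adult beta globin genes, read 8.39 and 7.04 against 7.63 and 6.74 and 8.12 and 6.77 against 7.65 and 6.69. In all 4, array 1 of each group was higher than array 2, and the groups overlapped. The differences ran from -0.53 to -0.28, with limma adjusted p from 0.468 to 0.739.

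Most members with reference gene symbols were not called. Gapdh, a glycolytic enzyme, was on 25 members in 5 symbol sets and on no probe set alone. Their array medians were 12.14 and 12.14 on IgG and 12.16 and 12.43 on RBP arrays, with differences from -0.01 to 0.34. Limma called 0 (0 at unadjusted p under 0.05), and the groups overlapped in 12 of 25. Actg1/Actb, the cytoplasmic actins, differed by 0.07 to 0.24 over 4 members and none was called. Tuba1c/Tuba1b/Tuba1a and Tuba1c/Tuba1b, alpha tubulins, differed by 0.27 to 0.46, with no overlap and none called. Ptma-ps2/Ptma differed by -0.03 to 0.06, and Gm15484/Npm1, a nucleolar chaperone, by -0.23 to -0.10, while Npm1 on its own probe set differed by -0.53 (adjusted p = 0.0734). Hmgb1, a chromatin protein, was on 34 members that differed from -0.96 to 0.05. Of these, 1 was called lower: Hmgb1-rs17/4932431P20Rik/Hmgb1/Gm12568 (10604663) read 11.90 and 11.78 against 10.86 and 10.90 (-0.96 ± 0.15, adjusted p = 0.029). The median of the 34 was -0.22 and turned to 0.10 after chemosensory centring. Hmgb1 on its own probe set read 9.95 and 9.57 on IgG and 8.13 and 8.63 on RBP arrays and was called lower (-1.37 ± 0.26, adjusted p = 0.0374).

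**Figure D4:**
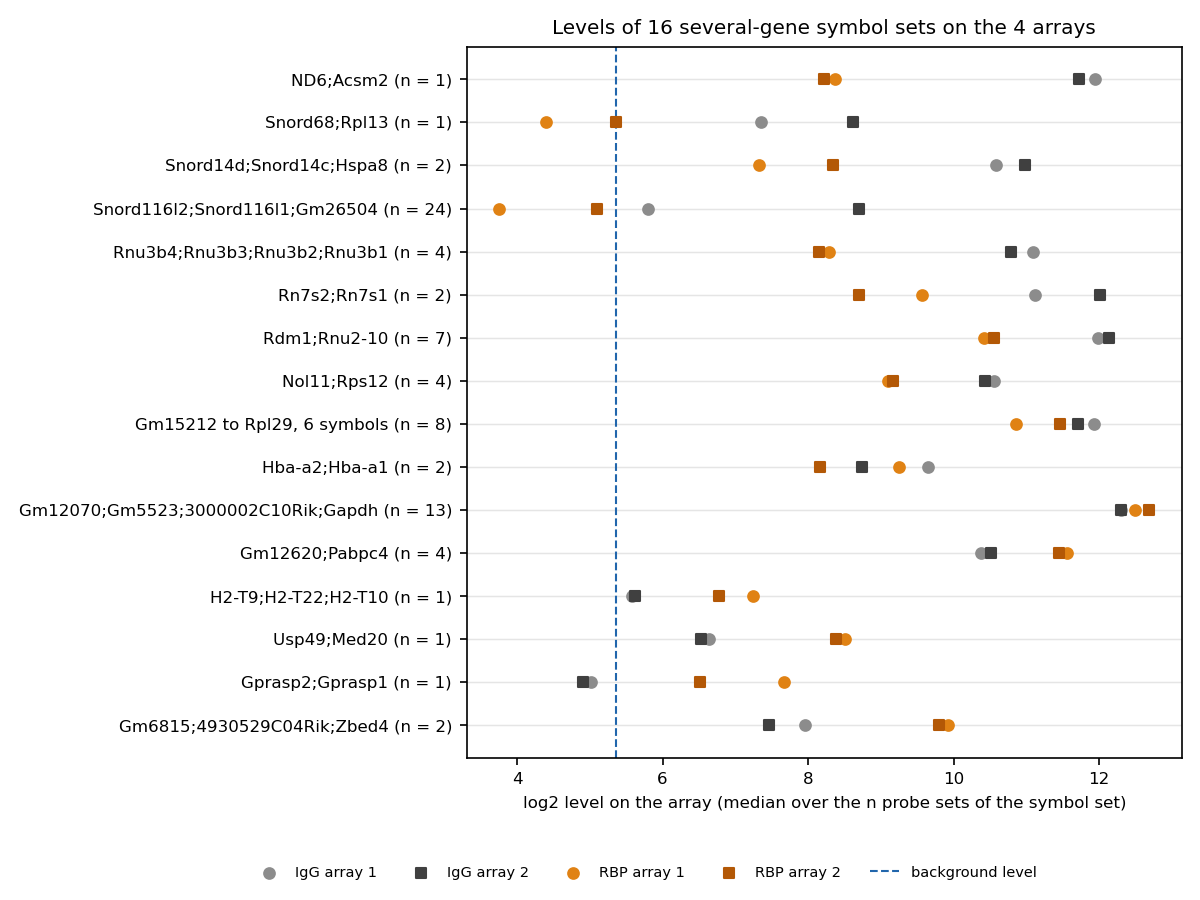
Log2 level (horizontal axis) on the 2 IgG arrays (grey) and the 2 RBP arrays (orange) for 16 symbol sets, as the median over their n probe sets; the dashed line is the background level. The upper rows, with ND6, snoRNA and small RNA symbols, have RBP values to the left of IgG values, the Gapdh values all lie between 12.30 and 12.69, those of alpha globin overlap, and the lower rows, with Usp49, Gprasp2 and Zbed4 symbols, have RBP values to the right.

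Of the 56 higher calls, 27 were on 1 named gene with predicted models, 16 on genes of a family and 13 on unlike symbols. The 2 largest were the members Gm6815/4930529C04Rik/Zbed4, with a zinc finger BED domain gene. The first read 8.01 and 7.50 on IgG and 9.95 and 9.86 on RBP arrays (2.15 ± 0.23, limma adjusted p = 0.0259), and the second differed by 2.14. Gprasp2/Gprasp1, sorting proteins of G protein-coupled receptors, read 5.01 and 4.91 against 7.67 and 6.51 (2.13 ± 0.42, adjusted p = 0.0403). Its IgG values lay under the background level, and RBP array 1 lay well above RBP array 2. Usp49/Med20, a deubiquitinase and a Mediator subunit, read 6.64 and 6.52 against 8.51 and 8.39 (1.87 ± 0.15, adjusted p = 0.0259). Med20 alone differed by 0.61 (adjusted p = 0.0628). Utp14b/Acsl3, a ribosome biogenesis gene within that of an acyl-CoA synthetase, read 7.17 and 7.38 against 9.002 and 8.91 (1.68 ± 0.16, adjusted p = 0.0259). H2-T9/H2-T22/H2-T10, nonclassical class I histocompatibility genes, read 5.58 and 5.62 against 7.24 and 6.78 (1.41 ± 0.21, adjusted p = 0.0279). The other 7 members holding H2 symbols were not called, and H2-T10 alone read 4.69 and 4.70 against 4.73 and 4.51, under the background level. In all these the groups stood apart without overlap.

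The remaining 6 of the 12 largest higher calls ran from 1.30 to 1.35. Alms1-ps2/Alms1, a centrosomal protein gene, read 6.08 and 5.63 against 7.33 and 7.09 (1.35 ± 0.22, adjusted p = 0.0316), and Alms1 alone was called higher by 1.04. Zbed6/Zc3h11a, an intronless gene inside another zinc finger gene, read 9.57 and 9.71 against 11.03 and 10.86 (1.30 ± 0.16, adjusted p = 0.0259). Gm13034/Smarca5-ps/Smarca5, an ATPase of the ISWI chromatin remodelers, read 9.30 and 9.25 against 10.47 and 10.67 (1.30 ± 0.16, adjusted p = 0.0259). Gm10651/Josd1, Bfar/3110001I22Rik and Mfap1b/Mfap1a differed by 1.30, 1.31 and 1.30. The calls of these 6 and of Gprasp2/Gprasp1 were lost after quantile normalization and after trend removal, and that of Gprasp2/Gprasp1 also without either IgG array. The other 5 of the 12 kept theirs under both scalings. Without either RBP array none of the 12 was called, although the differences stayed positive.

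Members with chaperone, RNA-handling and zinc finger symbols had positive medians, as did probe sets with 1 symbol of these families. The latter medians were 0.64 for chaperones, 0.73 for ribonucleoproteins, 0.46 for translation factors and 0.52 for zinc finger genes. Of the 105 chaperone probe sets with 1 symbol, 34.3% were called higher. The 5 chaperone members (median 0.85) belong to only 2 symbol sets. Gm4247/Dnajb6, an Hsp40 cochaperone, had 4 members, all called higher by 0.83 to 0.85, of which 1 read 9.02 and 9.15 on IgG and 9.81 and 10.06 on RBP arrays (0.85 ± 0.17, adjusted p = 0.0429). Dnajb6 on its own probe set differed by 0.19 (adjusted p = 0.682) and was not called. Of the 3 members named by the rule, none was called without IgG array 1 (adjusted p from 0.0522 to 0.0565). Hspa1a/Hspa1b, the stress-inducible Hsp70 genes, read 11.13 and 10.62 against 12.02 and 11.60, without overlap and not called (0.93 ± 0.26, adjusted p = 0.0782). Of 14 members of heterogeneous nuclear ribonucleoprotein symbols, which package nascent RNA, limma called 0 (13 higher at unadjusted p under 0.05, median 0.81), beside 11 of 23 probe sets with 1 such symbol called higher. The 14 belong to only 2 symbol sets, 9 members with Hnrnpa3 (0.74 to 0.87) and 5 with Hnrnpa1 (0.03 to 0.61). The 23 covered 17 symbols. Chemosensory centring called 13 of the 14 higher. Gm6793/Hnrnpa3 had array medians of 10.60 and 10.66 on IgG and 11.67 and 11.24 on RBP arrays, without overlap in its 9 members. Eif4a3l1/Eif4a3, an exon junction helicase, read 9.04 and 8.75 against 10.01 and 9.91 (1.07 ± 0.17, adjusted p = 0.0313), 1 of 8 translation factor members called. Gm12620/Pabpc4, a cytoplasmic poly(A)-binding protein, was singled out after its values were seen: all 4 members were called higher by 0.995 to 1.11, with array medians of 10.37 and 10.52 against 11.56 and 11.45. Of 32 zinc finger members, 4 were called higher (12.5%) and 1 lower, with a median of 0.37. That share lay near the 11.6% of all probe sets, while 94 of 392 probe sets with 1 zinc finger symbol were called higher. EU599041/Gm2381/Zfp975/Zfp976 read 5.11 and 5.38 against 6.29 and 6.61 (1.21 ± 0.20, adjusted p = 0.0322). The medians of the chaperone, ribonucleoprotein and zinc finger members stayed positive under the 3 scalings, while that of the translation factors turned to -0.03 after trend removal.

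Germline and chemosensory receptor members lay mostly under the background level and had negative medians. That level was itself taken from chemosensory receptor probe sets of 1 symbol, so the place of receptor members under it was largely set by definition. Of 137 members of multicopy germline genes, 3 exceeded the background, limma called 15 lower and 0 higher (0 higher at unadjusted p under 0.05), and the median was -0.88. After quantile normalization and after trend removal 0 of the 137 were called, with medians of -0.53 and -0.67. Ssty2 symbols of the Y chromosome were on 22 members, with array medians of 4.60 and 6.23 on IgG and 3.99 and 4.10 on RBP arrays, so IgG array 2 stood above the other 3 arrays. Limma called 0 of the 22 (5 lower at unadjusted p under 0.05). Pramel50/BC080696/Pramel37/Pramel39 had 8 of 11 members called lower, and the largest read 5.59 and 5.96 against 4.51 and 4.55 (-1.24 ± 0.19, adjusted p = 0.0286). Of 98 olfactory receptor members, 9 exceeded the background and 5 were called lower (median -0.45), and of 68 vomeronasal, taste and trace amine receptor members, 2 exceeded it and 4 were called lower (median -0.67). These shares, 5.10% and 5.88%, lay near the 5.62% of all probe sets called lower. Probe sets with 1 symbol of these 2 families had medians of -0.30 and -0.26, with 2.71% and 1.29% called lower. Vmn2r112/Vmn2r116/Vmn2r113/Vmn2r111 read 5.14 and 5.36 against 3.90 and 4.07 (-1.26 ± 0.17, adjusted p = 0.0263). The 9 chemosensory calls were lost after quantile normalization. The median of the olfactory members was -0.10 after quantile normalization. It was -0.13 after chemosensory centring, which sets the arrays level on receptors of the same kind.

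Interferon and chemokine members had negative differences at somewhat higher values. Of 26 interferon and interferon-induced members, 22 exceeded the background and limma called 0 (21 lower at unadjusted p under 0.05), with all 26 negative and a median of -0.95. The 72 probe sets with 1 such symbol had a median of -0.15, and 1.39% of them were called lower. Ifnz symbols were on 18 of them, with array medians of 6.54 and 7.05 on IgG and 5.80 and 5.90 on RBP arrays and no overlap. Ccl21d to Ccl21a, a set of 7 symbols with lymphoid-organ chemokines, was called lower on 4 members that hold 1 profile of identical values, 5.93 and 6.11 against 5.16 and 5.20 (-0.84 ± 0.16, adjusted p = 0.0371). Of 15 keratin and keratin-associated members, 4 were called lower: Gm6358/Gm33888/Krtap20-2 read 7.04 and 7.19 against 5.87 and 6.07 (-1.15 ± 0.17, adjusted p = 0.0271), and the other 3 belonged to Gm11562/Gm11938/Krtap2-4. Of 56 immunoglobulin and T cell receptor members 1 was called lower (1.79%), and of 7 major urinary protein members 2. Over all probe sets, 5.62% were called lower. Among probe sets with 1 symbol, the lower calls were 2.7% of 37 for chemokines and 2.02% of 99 for keratins. They were 3.45% of 29 for immunoglobulin and T cell receptor segments and 0 of 3 for major urinary proteins.

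Members with the same symbols were not independent. Of the 1613, 259 (16.1%) had values identical to another member on all 4 arrays, in 93 groups, none of which mixed different symbol sets. The shares were 0.592% for probe sets with 1 symbol and 2.58% for those with none. The largest groups were 18 of 24 Snord116l2/Snord116l1/Gm26504 members, all 13 members of the Mir669 set and the 9 of the Mir467 set. Left as distinct profiles, the calls numbered 55 higher and 82 lower, in 40 and 59 symbol sets. Over the 914 profiles in 259 sets with at least 2, the SD of the difference was 0.139 within a set and 0.631 over all of them. No set held calls in both directions, 24 sets were called whole and 15 in part, and in 265 of 285 recurring sets all members had the same sign. Gm4724/Gm14410/Gm14305/Gm14308/Gm14295/Gm2026/Gm14434/Gm14391/Gm6710, predicted models on 11 members with 2 profiles, had the highest median of the sets with 10 or more members. It read 8.06 and 8.01 on IgG and 8.79 and 9.80 on RBP arrays in the larger group (1.26 ± 0.37, adjusted p = 0.0839) and was not called, with RBP array 2 well above RBP array 1.

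**Figure D5:**
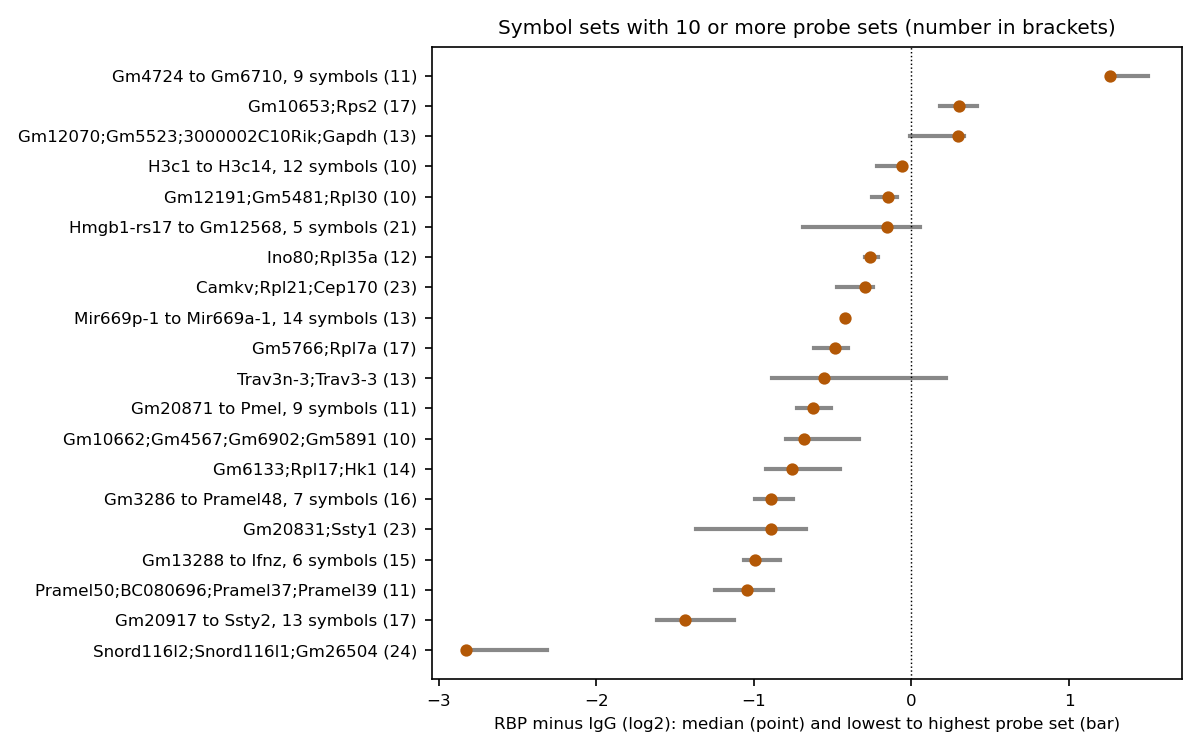
RBP minus IgG (log2, horizontal axis) in the 20 symbol sets with 10 or more probe sets (number in brackets); points are medians and bars run from the lowest to the highest probe set. Medians run from -2.83 for the Snord116 set to 1.26 for the Gm4724 set, and most bars are short beside that range.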

How the data were processed

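RNA from 2 IgG and 2 RBP-antibody precipitations was hybridised to Affymetrix whole-transcript gene arrays, 1 array each. The authors deposited 1 log2 signal for each probe set and array, and the submitters' processing notes list RMA and affy, without versions. Values were used as deposited. A probe set was a member if the platform annotation gave it at least 2 distinct symbols; family letters were matched after predicted models were set aside, and symbols were located through the RefSeq gene table (GRCm38.p6). No genome was used.

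RBP minus IgG was fitted over all 35556 probe sets with limma 3.58.1 in R 4.3.3 (lmFit and eBayes, two-sided, 2 residual degrees of freedom), and p-values were adjusted by Benjamini-Hochberg, with calls at adjusted p under 0.05; the median SE of the members was 0.196. The script was tested on simulated data. Errors after ± are SEs. The number of arrays limits the precision.

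Members, lists and tests were chosen with earlier results of these data known. Named were the 12 largest called differences each way (chemosensory, small RNA and predicted sets left out), up to 3 called members of each family of 5 or more (or the 2 most abundant), and a list of housekeeping, globin and ferritin symbols; others are said to have been chosen after their values were seen, and set or symbol summaries follow the sets with 10 or more members.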

Additional observations from a re-analysis of the deposited data

How the results depend on the processing

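With 56 higher and 99 lower calls as deposited, the counts were 8 and 38 after quantile normalization, 124 and 37 after centring on chemosensory receptors, 7 and 79 with the level trend removed, 27 and 33 against a 1.2-fold change, 109 and 297 over annotated probe sets only, 114 and 344 at adjusted p under 0.1, and 0 and 0 without variance moderation (96 and 252 at unadjusted p under 0.05). Filters at the median and at the chemosensory 95th percentile gave 105 higher and 145 lower and 98 higher and 146 lower calls, and members with several named genes 29 and 83. Leaving out 1 array gave 0 to 65 higher and 0 to 512 lower calls, 0 both ways without either RBP array. Over annotated probe sets only, a combination chosen after seeing the data, the counts were 93 and 633 without IgG array 1, 97 and 451 without IgG array 2, and 0 and 0 without either RBP array. The causes were not tested.

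With the replicate number as a block the counts were 98 and 291. Deviations of same-numbered arrays correlated at 0.37, but there are only 2 pairs and the labels state no pairing.

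No called member among those named reversed. Uncalled members that did were Cyp2a5/Cyp2a4 (0.14 after quantile normalization, 0.086 after chemosensory centring, 0.002 with the trend removed), Cyp2c69/Cyp2c67/Cyp2c68/Cyp2c40 (0.13 and 0.075 after the first 2), H3c1 to H3c14 at 10404065 (0.26, 0.26 and 0.14), Mir703/Eef1a1/D630045J12Rik (-0.07 with the trend removed) and, after chemosensory centring, Hmgb1-rs17/Hmgb1/Gm12568 (0.069), Gm5176/4932431P20Rik/Hmgb1/Gm12568 (0.13) and Hmgb1-rs17/4932431P20Rik/Hmgb1/Gm12568 at 10385426 (0.23, and -0.19 to 0.013 without 1 array).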
